A study of Mus musculus with 6 samples.

Results

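The 10 genes described here are core components of the circadian clock and its output gene Dbp, in livers of mice overdosed with acetaminophen (APAP) or given saline. They were taken by gene symbol from the table of 34745 genes, in which all 10 were found (Arntl, Clock, Npas2, Per1, Per2, Per3, Cry1, Nr1d1, Nr1d2 and Dbp), and all 10 passed the filter on low counts. The APAP livers came from WT mice injected with APAP at 300 mg/kg and collected 12 hours later, and the control livers from WT mice injected with saline. All mice had been fasted for 12 hours before the injection, and the methods name male C57BL/6J mice aged 8 to 10 weeks. The labels list 3 livers per group. The libraries analysed were APAP replicates 1 and 3 together with WT1, WT2 and WT3, 5 in all. Columns named WT were taken to be the saline livers, since APAP appears in the name of every other column. Each difference below depends on this assignment. No count column was available for replicate 2 of the APAP group, so it was not analysed here. The sources used here give no time of day for the injections or the collections, and no light cycle.

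The mammalian clock is a transcriptional feedback loop that runs in nearly every cell and sets a daily rhythm in the liver. BMAL1 (encoded by Arntl) pairs with CLOCK or its paralog NPAS2, binds E-boxes and activates the Per, Cry, Nr1d and Dbp genes. The PER and CRY proteins then repress BMAL1-CLOCK. In an interlocking loop, the nuclear receptors REV-ERBα (Nr1d1) and REV-ERBβ (Nr1d2) repress Arntl, Npas2, Clock and Cry1 through RORE elements, while DBP activates genes with a D-box, Per genes among them. In liver, transcripts of the activators and those of Nr1d1, Dbp and Per3 therefore peak at different times of the day. The liver clock also drives genes of bile acid, glucose and drug metabolism and is entrained by feeding.

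RefSeq promoter windows (GRCm38.p6) of 250 bases before to 50 bases after the transcription start were found for 9 of the 10 genes. They were searched on both strands for the E-box CACGTG, the E-box-like CACGTT, the D-box TTATGTAA or TTATGCAA, the core TAGGTCA of the RORE and the cyclic AMP response element TGACGTCA, and none of the matches overlapped another. Motifs were found in 5 of the genes. The upstream sequences of Per3, Per1, Cry1 and Nr1d1 are shown because they hold the elements of the loop just described. Each line gives the 250 bases before the start, 5′ to 3′, and capitals mark the motifs.
Per3, chr4:151044666-151044915, minus strand: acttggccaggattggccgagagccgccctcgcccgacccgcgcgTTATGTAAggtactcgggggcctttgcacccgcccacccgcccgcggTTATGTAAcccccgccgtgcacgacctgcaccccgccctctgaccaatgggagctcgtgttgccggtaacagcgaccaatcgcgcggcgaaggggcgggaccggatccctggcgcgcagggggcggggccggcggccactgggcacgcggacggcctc
Per1, chr11:69098699-69098948, plus strand: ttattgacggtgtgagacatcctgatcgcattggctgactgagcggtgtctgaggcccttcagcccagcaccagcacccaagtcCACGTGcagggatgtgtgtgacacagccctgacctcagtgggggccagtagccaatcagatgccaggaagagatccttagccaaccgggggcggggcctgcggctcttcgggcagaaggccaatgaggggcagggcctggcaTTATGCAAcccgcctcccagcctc
Cry1, chr10:85185055-85185304, minus strand: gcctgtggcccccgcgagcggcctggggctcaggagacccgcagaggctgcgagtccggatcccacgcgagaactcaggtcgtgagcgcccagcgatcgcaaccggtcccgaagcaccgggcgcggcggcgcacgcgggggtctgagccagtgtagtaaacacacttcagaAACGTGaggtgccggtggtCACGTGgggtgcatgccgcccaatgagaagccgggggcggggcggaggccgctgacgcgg
Nr1d1, chr11:98775378-98775627, minus strand: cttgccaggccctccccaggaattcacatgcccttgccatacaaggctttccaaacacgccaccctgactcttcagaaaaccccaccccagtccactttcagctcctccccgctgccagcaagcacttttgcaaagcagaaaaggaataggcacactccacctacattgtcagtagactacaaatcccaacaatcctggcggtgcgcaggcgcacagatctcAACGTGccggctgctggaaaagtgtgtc
Per3 held a pair of D-boxes, with first bases 205 and 158 bases before the start. Per1 held an E-box and a D-box in a window that lies inside the gene's deposited span, Cry1 an E-box and an E-box-like site, and Nr1d1 an E-box-like site, which is written as AACGTG on the strand shown. For Arntl, the 30 bases around a RORE core that lies 31 bases after the start of the second annotated window are shown, with the core in capitals.
Arntl, chr7:113207530-113207559, plus strand: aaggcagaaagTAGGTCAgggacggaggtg
Among all 32851 promoter windows, 7.15% held the E-box, 4.68% the E-box-like site, 1.66% a D-box, 2.61% the RORE core and 1.79% the cyclic AMP response element. A match is a description of letters in these windows.

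Libraries held 13378445 to 15976339 counts in total. Counts were normalized for library composition (TMM) and are given as CPM, counts scaled to a common library size, and 3 counts corresponded to between 0.176 and 0.269 CPM. Fold changes are those of edgeR's quasi-likelihood test over 13734 genes, with Benjamini-Hochberg adjustment over all of them, and APAP is always compared with saline. Sex-linked genes separated the groups as well. Xist measured 0.764 and 1.73 CPM in APAP replicates 1 and 3 and between 289.6 and 914 CPM in the saline libraries, and the summed level of 4 Y-linked genes was 171.3 and 126.3 CPM in the same replicates and at most 0.134 CPM with saline. The saline libraries thus show the pattern of female tissue and the APAP libraries that of male tissue, although the methods name male mice. Treatment and sex therefore cannot be told apart in any difference below, whether of clock genes or of liver outputs. The markers of hepatocytes, the labelled tissue's main cells, were present in all libraries (5 of 5 tested, summed at 63260 and 105500 CPM with APAP and at 111400 to 151500 CPM with saline, without overlap). Most of this sum was Alb, at 51540 and 89800 CPM with APAP (adjusted p 0.512). With scaling to library size only, the groups overlapped in Alb, Hnf4a and Cps1, but not in Ttr or Apoa1. Of the 5 markers, 4 were lower and Apoa1 was higher (log2 fold change 0.57), and 0 passed an adjusted p of 0.05. The summed level of 6 neutrophil markers was 88.8 and 56.7 CPM against 1.99 to 4.21 CPM (4 of 6 tested, Ly6g at 0 in all saline libraries), and that of 4 cholangiocyte markers 340.7 and 353 CPM against 46.3 to 50.8 CPM (4 of 4 tested). Most of the cholangiocyte sum was Spp1, at 276.3 and 313.1 CPM with APAP. In APAP replicate 3, Krt19 (2.72 CPM) and Epcam (2.41 CPM) lay just above WT3 (2.54 and 2.34 CPM). Their adjusted p was 0.0914 and 0.157. The sums of Kupffer cell, sinusoidal endothelial, stellate, monocyte and lymphocyte markers overlapped between the groups, but some single markers, none of lymphocytes, did not. Of the 4 monocyte markers Ccr2 and Chil3 rose (log2 fold change 1.65 and 6.73, adjusted p 0.0402 and 0.000583), as did Col1a1 of the 5 stellate markers (1.97, adjusted p 0.0498), while Marco of the Kupffer cell markers and Lyve1 of the endothelial markers were higher by the fold change rule given below only. In bulk tissue, fewer cells of a type and less RNA per cell cannot be told apart, and the part of these markers in the clock genes' values was not tested.

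Dbp and Per3 rose with APAP and Cry1 fell (adjusted p under 0.05). Arntl, Npas2 and Clock were lower and Per2 and Nr1d1 higher in the APAP libraries by the study's rule without passing the adjusted threshold. That rule is a fold change of at least 1.5 and P under 0.05, and P was taken here as unadjusted because its adjustment is not stated. Per1 and Nr1d2 passed neither threshold. In total 8 of the 10 genes met the study's rule, 4 higher and 4 lower, where 23.5% of all genes tested did so (12.3% higher and 11.2% lower). With the adjusted p, 3 of the 10 were called, 2 higher and 1 lower, against 7.23% of all genes (3.7% higher and 3.53% lower). The APAP and saline libraries did not overlap in 8 of the 10 genes, against 44.1% of all genes. The median absolute log2 fold change was 1.46 over the 10 genes and 0.44 over all genes tested.

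**Figure D1:**
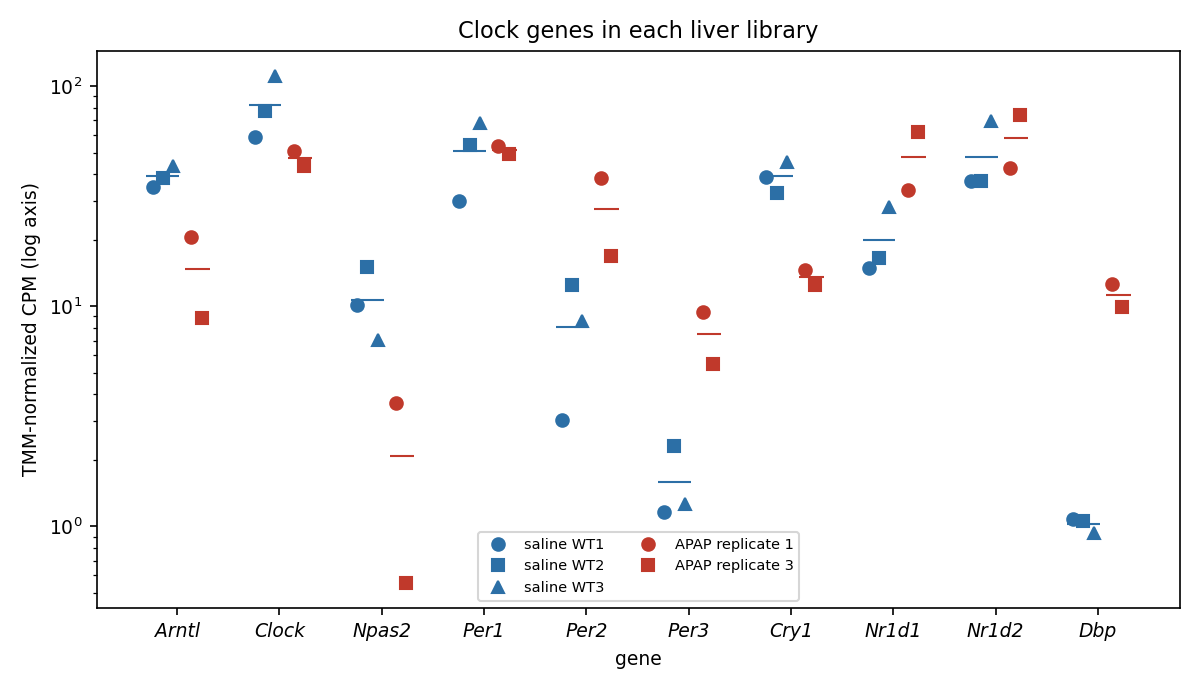
TMM-normalized CPM (log axis) of each of the 10 clock genes in the 3 saline libraries (blue) and 2 APAP libraries (red), with a point for each library and a line for each group mean. The groups are apart in all genes but Per1 and Nr1d2, and furthest apart in Dbp, with about 1 CPM in every saline library and 9.95 and 12.6 CPM in the APAP libraries.

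The output gene Dbp, an activator of D-box genes of the PAR-bZIP family, had the lowest adjusted p of the 10. Dbp (ENSMUSG00000059824, chromosome 7 of GRCm38, 45705088 to 45710155) measured 12.6 and 9.95 CPM in APAP replicates 1 and 3, compared with 1.08, 1.06 and 0.935 CPM in WT1, WT2 and WT3. The saline libraries lay close together and the lowest APAP library was 9.25-fold above the highest of them. The mean was 11.3 ± 1.90 CPM (SD, n = 2 libraries) against 1.03 ± 0.0776 CPM (SD, n = 3). The log2 fold change was 3.45 ± 0.31 (standard error, SE, with adjusted p = 0.00360), and the adjusted p stayed under 0.05 in all 14 alternatives, where it was at most 0.0339. These values rest on raw counts of 215 and 161 with APAP and of 12, 16 and 14 with saline. Of the exon sequence of Dbp, 18.0% overlaps Sphk2 on the other strand. Sphk2 had 389 to 486 counts per library, and since the strand setting of the counting is not given, reads from the shared 539 bases cannot be told apart.

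Among the repressor genes of the Per family, Per3 rose, while Per2 and Per1 did not pass the adjusted threshold. PER proteins form the complex with CRY that shuts off BMAL1-CLOCK, and Per1 and Per2 also respond to acute signals. Per3 (ENSMUSG00000028957, chromosome 4, 151003652 to 151044665) measured 9.46 and 5.501 CPM in APAP replicates 1 and 3, compared with 1.17, 2.33 and 1.27 CPM in WT1, WT2 and WT3, so that both APAP livers lay above all saline livers. The fitted log2 fold change was 2.22 ± 0.45 (SE, adjusted p = 0.0345), a 4.71-fold higher mean. Leaving out any library ended this call, with an adjusted p of 0.0722 to 0.0834 where a saline library was left out. Without either APAP library a single one remained. The log2 fold change over these fits was 1.78 to 2.61. Per3 was counted with 13 to 35 reads per saline library.
Per2 (ENSMUSG00000055866, chromosome 1, 91415982 to 91459324) measured 38.3 and 16.9 CPM in APAP replicates 1 and 3, compared with 3.05, 12.5 and 8.62 CPM in WT1, WT2 and WT3. The groups did not overlap, but WT1 was 4.10-fold below WT2. The fitted log2 fold change was 1.77 ± 0.57 (SE, adjusted p = 0.115), and it was 1.06 without APAP replicate 1.
Per1 (ENSMUSG00000020893, chromosome 11, 69095217 to 69109960) was at 53.8 and 49.1 CPM with APAP, inside the saline range of 30.2, 54.4 and 68.1 CPM. Its log2 fold change was 0.0145 with a 95% interval of −0.79 to 0.82 (adjusted p = 0.987), so a difference within that interval, in either direction, is not excluded by these libraries. Its sign changed with the scaling, at −0.0146 with DESeq2 size factors.

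Cry1, which encodes the cryptochrome repressor, fell with APAP. Cry1 (ENSMUSG00000020038, chromosome 10, 85131702 to 85185054) measured 14.7 and 12.6 CPM in APAP replicates 1 and 3, compared with 38.9, 32.8 and 45.5 CPM in WT1, WT2 and WT3. The lowest saline library was 2.23-fold above the highest APAP library, and the libraries within each group were close. The mean was 34.9% of the saline mean, and the fitted log2 fold change was −1.52 ± 0.23 (SE, adjusted p = 0.0164). The adjusted p was above 0.05 without WT2 (0.0558) and with scaling to library size only (0.0502). The call also ended without either APAP library, where a single APAP library remained. Over these fits the log2 fold change of Cry1 stayed between −1.63 and −1.11. Its paralog Cry2, which was named after its values were seen, measured 33.7 and 26.3 CPM in APAP replicates 1 and 3, compared with 16.8, 20.4 and 24.2 CPM in WT1, WT2 and WT3. The log2 fold change of Cry2 was 0.55 (standard error 0.24, adjusted p = 0.206), so its values lay in the opposite direction without passing the test.

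The 3 activators were lower in the APAP libraries, to different degrees. Arntl, which encodes BMAL1, the obligate partner in the activator complex (ENSMUSG00000055116, chromosome 7, 113207465 to 113314122), measured 20.7 and 8.84 CPM in APAP replicates 1 and 3, compared with 35.05, 38.5 and 43.6 CPM in WT1, WT2 and WT3. The saline libraries were within 1.25-fold of each other, whereas the APAP libraries differed 2.34-fold, with replicate 3 the lower. The log2 fold change was −1.40 ± 0.37 (SE, adjusted p = 0.0706), and leaving out APAP replicate 1 gave −2.14, while leaving out replicate 3 gave −0.93. Each of these fits rests on a single APAP library. Leaving out a saline library gave an adjusted p of 0.116 to 0.184.
Npas2, the paralog that can stand in for CLOCK (ENSMUSG00000026077, chromosome 1, 39193731 to 39363236), measured 3.64 and 0.556 CPM in APAP replicates 1 and 3, compared with 10.1, 15.1 and 7.02 CPM in WT1, WT2 and WT3. It differed 6.55-fold between the APAP libraries, and APAP replicate 3 held 9 reads. Its log2 fold change of −2.35 ± 0.74 (SE, adjusted p = 0.110) moved to −4.25 without APAP replicate 1 and to −1.57 without APAP replicate 3. Each of these fits rests on a single APAP library.
Clock (ENSMUSG00000029238, chromosome 5, 76209868 to 76304792) measured 50.7 and 43.4 CPM in APAP replicates 1 and 3, compared with 58.8, 77.4 and 111.4 CPM in WT1, WT2 and WT3. The highest APAP library lay just below WT1, at a 1.16-fold distance, and with scaling to library size only the groups overlapped. The log2 fold change was −0.81 ± 0.31 (SE, adjusted p = 0.160) and no alternative brought the adjusted p under 0.05. It was −0.53 without WT3, the saline library with the most Clock.

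The genes of the REV-ERB receptors, the repressors of the interlocking loop, had higher means with APAP, and neither passed the adjusted threshold. Nr1d1 (ENSMUSG00000020889, chromosome 11, 98767932 to 98775333) measured 33.8 and 62.1 CPM in APAP replicates 1 and 3, compared with 14.9, 16.7 and 28.4 CPM in WT1, WT2 and WT3. Both APAP libraries were above all saline libraries, though APAP replicate 1 was only 1.19-fold above WT3. The log2 fold change was 1.26 ± 0.37 (SE, adjusted p = 0.0904), and it was 0.75 without APAP replicate 3 and 1.60 without WT3, when the adjusted p was 0.0461. Of the Nr1d1 exon sequence, 8.55% overlaps Thra on the other strand, and Thra had 120 to 223 counts per library against 166 to 1004 for Nr1d1.
Nr1d2 (ENSMUSG00000021775, chromosome 14, 18204054 to 18239127) measured 42.7 and 73.9 CPM in APAP replicates 1 and 3, compared with 37.02, 37.3 and 69.4 CPM in WT1, WT2 and WT3, so the groups overlapped. Its log2 fold change was 0.28 with a 95% interval of −0.59 to 1.16 (adjusted p = 0.685). In both receptor genes, the higher library of each group was the same, APAP replicate 3 and WT3. Of the 50-base words of the Nr1d2 transcript, 6.0% also occur in another annotated gene, and the other 9 genes shared no such word.

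**Figure D2:**
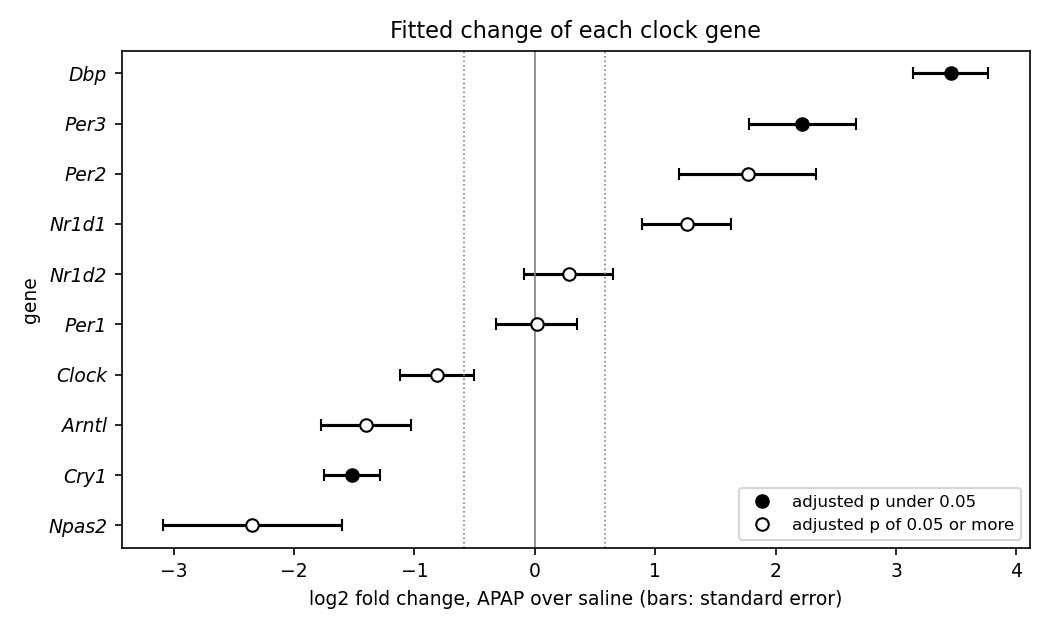
Log2 fold change of APAP over saline for the 10 clock genes, with the standard error as bars, filled points for an adjusted p under 0.05 and dotted lines at a fold change of 1.5. Dbp (3.45) and Per3 (2.22) lie furthest to the right, Npas2 (−2.35) furthest to the left with the widest bar, and Per1 (0.0145) at 0.

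Differences of log2 CPM between 2 clock genes within a library do not depend on how the libraries are scaled, and they are given as a description. Where a pair joins a gene lower with APAP to a gene higher with APAP, their separation repeats that of the single genes. They are not divided by exon length, so they can be compared between libraries, while their sign gives no order of the levels of the pair. Arntl minus Nr1d1 was 1.24, 1.21 and 0.62 in WT1, WT2 and WT3 and −0.71 and −2.81 in APAP replicates 1 and 3, lower in both APAP livers than in all saline livers. Arntl minus Dbp was 5.03 to 5.54 in the saline libraries and 0.71 and −0.17 in the APAP libraries. Cry1 minus Per2 was 1.39 to 3.67 with saline and −1.38 and −0.43 with APAP.
Per2 minus Per1 was between −3.31 and −2.12 with saline and reached −0.49 and −1.54 with APAP on the log2 scale. Nr1d1 minus Nr1d2 was between −1.32 and −1.16 with saline and reached −0.34 and −0.25 with APAP. The difference between Npas2 and Clock overlapped between the groups, at −3.80 and −6.29 with APAP and −2.54, −2.36 and −3.99 with saline.

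**Figure D3:**
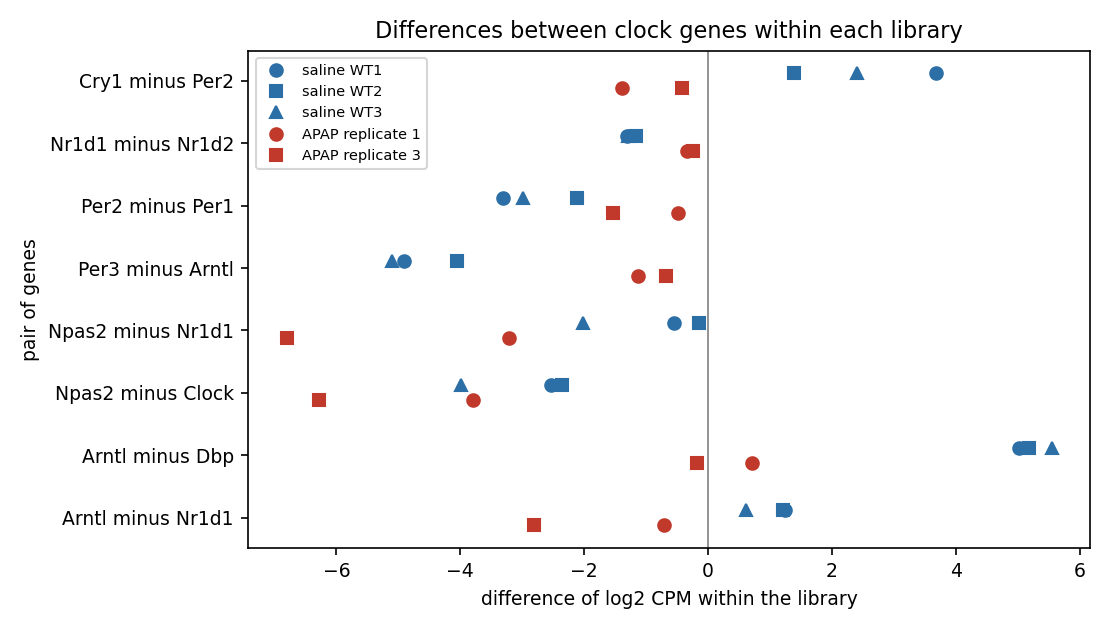
Difference of log2 CPM between 2 clock genes within each library (blue, saline; red, APAP; 1 point per library) for 8 pairs. Saline and APAP points are apart in 7 of the pairs and overlap in Npas2 minus Clock. Most pairs join a gene lower with APAP to a gene higher with APAP, so their separation repeats that of the single genes. No share over other pairs of genes was taken.

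Levels were compared between genes only per length, as CPM per kb of annotated exon sequence, with the mean over libraries. In the saline livers the order was Cry1 (11.7), Per1 (9.04), Nr1d2 (8.85), Nr1d1 (6.49), Clock (6.01), Arntl (5.19), Npas2 (2.24), Per2 (1.38), Dbp (0.342) and Per3 (0.165). Neighbors in this order overlapped in their libraries from Cry1 down to Arntl and between Npas2 and Per2, and they were apart between Arntl and Npas2, between Per2 and Dbp and between Dbp and Per3. In the APAP livers the order was Nr1d1 (15.6), Nr1d2 (10.8), Per1 (9.14), Per2 (4.71), Cry1 (4.08), Dbp (3.77), Clock (3.43), Arntl (1.96), Per3 (0.779) and Npas2 (0.438). There the libraries overlapped among Nr1d1, Nr1d2 and Per1 as neighbors, from Per2 down to Clock, and between Per3 and Npas2, and were apart elsewhere. Cry1 thus went from the highest place to the fifth, and Dbp from the ninth place to the sixth. The exon length joins all annotated isoforms. For Arntl, Cry1 and Dbp it comes from an annotation whose gene coordinates differ from those deposited.

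**Figure D4:**
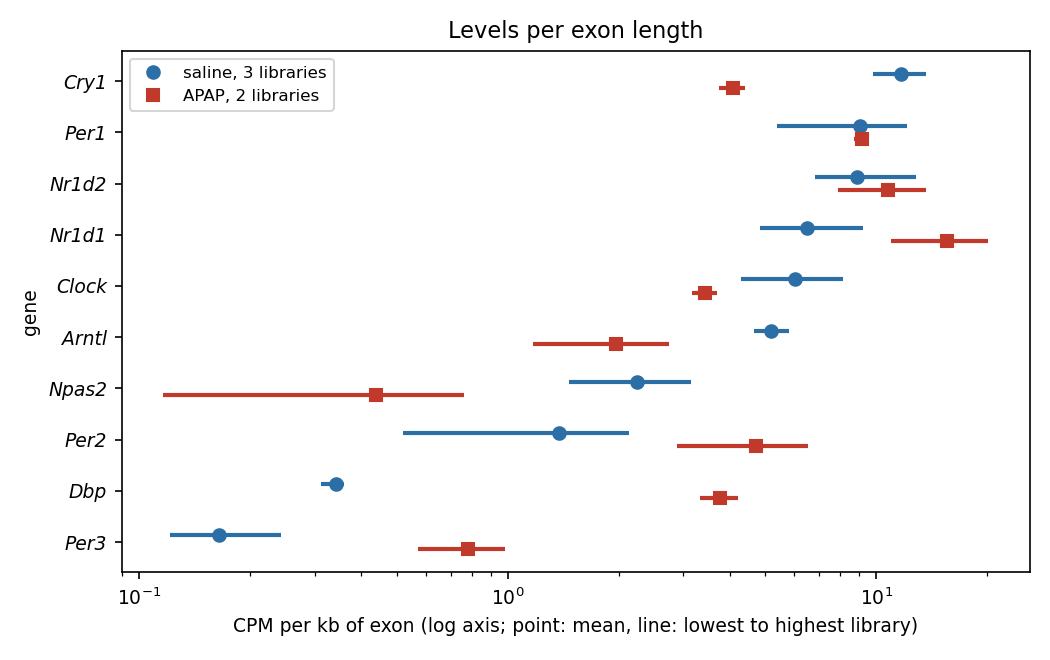
CPM per kb of exon (log axis) for each clock gene, with the mean as a point and the lowest to highest library as a line, for the 3 saline (blue) and 2 APAP (red) libraries, ordered by the saline mean. The lines of the groups overlap in Per1 and Nr1d2, and Nr1d1 is the highest gene with APAP at 15.6 and Cry1 the highest with saline at 11.7.

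Other genes of the clock were read from 5 lists with 44 tested genes in all, of which 11 met the study's rule (4 higher, 7 lower), beside 23.5% of all genes tested. Their median absolute log2 fold change was 0.38, against 0.44 over all genes.
Tef and Hlf, relatives of Dbp in the PAR-bZIP family, were named after their values were seen. Tef was at 83.9 and 79.5 CPM against 39.1, 37.9 and 65.4 CPM (log2 fold change 0.78 ± 0.28, SE, adjusted p = 0.149). Hlf overlapped between the groups (68.3 and 31.8 CPM against 44.7, 50.5 and 40.2 CPM), so of the 3 PAR-bZIP genes Dbp was the one that passed the test. Whether Dbp differed from the other two was not tested.

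Of the 11 kinases, ubiquitin ligases and other enzymes that set the stability of PER and CRY, 0 passed the adjusted threshold in edgeR's quasi-likelihood test. Of all genes tested, 7.23% passed it. At an unadjusted p under 0.05 there were 2, both lower, and 2 met the study's rule, beside 23.5% of all genes. The adjusted likelihood ratio and exact tests called 1 and DESeq2 2. Over all 13734 genes these tests called 1835, 1776 and 2093. The largest difference among them was that of Usp2, a deubiquitinase and rhythmic liver gene named after its values were seen, measuring 2.17 and 4.88 CPM in APAP replicates 1 and 3 and 6.54, 20.0 and 50.5 CPM in WT1, WT2 and WT3. The saline libraries of Usp2 spanned a wider range than any of the 10 core genes did, and its log2 fold change of −2.87 had a standard error of 0.87 (adjusted p = 0.0970). Of the 8 corepressors, coactivators and NAD+ genes, 0 were called by the adjusted p of edgeR's quasi-likelihood test, 0 at an unadjusted p under 0.05 and 0 by the likelihood ratio test, the exact test or DESeq2. The same shares of all genes, 7.23% and 23.5%, stand beside these counts. Whether either list differs from all genes was not tested.

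Among 14 genes that the clock drives in liver, 6 met the study's rule (2 higher, 4 lower) and 3 the adjusted threshold, all 3 lower, beside 23.5% and 7.23% of all genes. Cyp7a1, the rate-limiting enzyme of bile acid synthesis, measured 1.18 and 1.42 CPM in APAP replicates 1 and 3, compared with 72.7, 163.4 and 114.6 CPM in WT1, WT2 and WT3 (log2 fold change −6.48 ± 0.48, SE, adjusted p = 0.00184). Cyp2b10, a drug-metabolizing enzyme, was at 12.4 and 10.5 CPM against 78.2, 68.9 and 75.8 CPM (log2 fold change −2.70 ± 0.22, SE, adjusted p = 0.00224). Cyp2a5, another P450 enzyme, was at 197.2 and 173.3 CPM against 462.8, 507.9 and 392.2 CPM (log2 fold change −1.29 ± 0.25, SE, adjusted p = 0.0325). This call ended without WT1 or WT2 and with scaling to library size only. It also ended without either APAP library, where a single one remained.

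**Figure D5:**
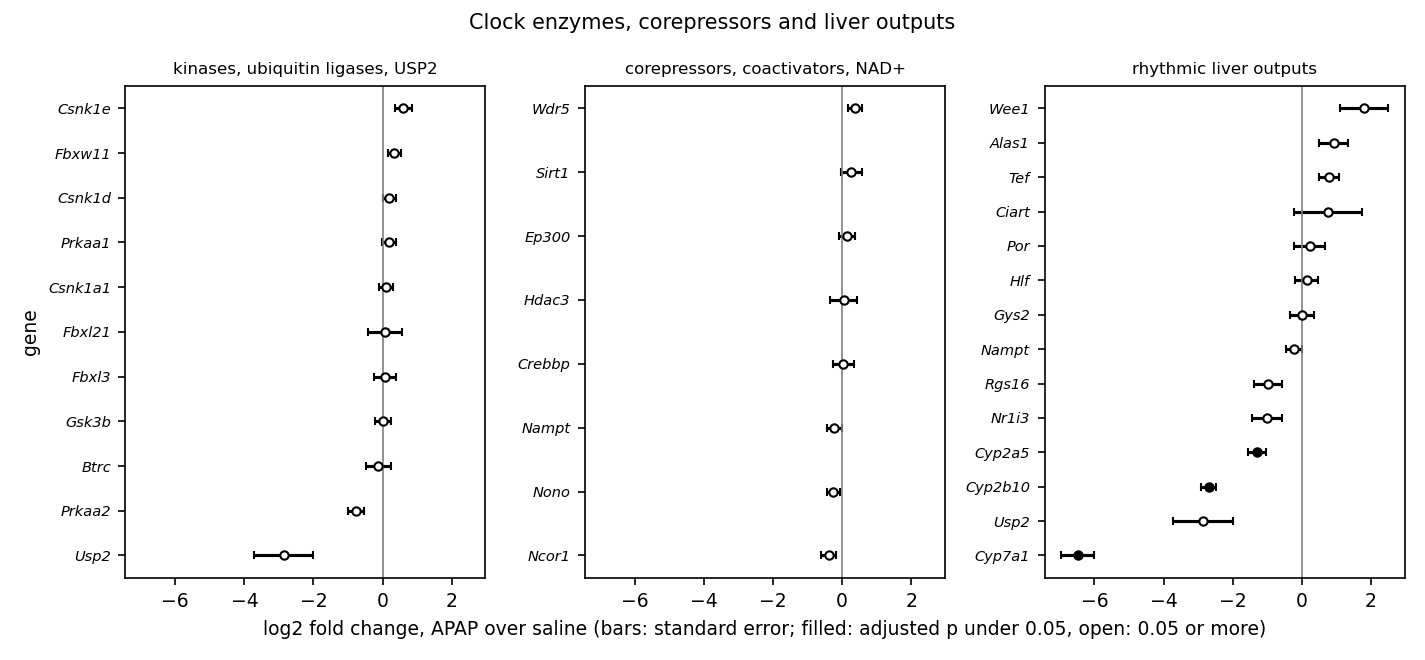
Log2 fold change of APAP over saline with the standard error for 3 lists of further genes (enzymes of PER and CRY stability, corepressors with coactivators and NAD+ genes, and liver outputs of the clock), with filled points for an adjusted p under 0.05. Cyp2a5, Cyp2b10 and Cyp7a1 are filled on the left, and the points of the corepressor list lie within 0.39 of 0.

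The genes whose profile over the 5 libraries lay closest to that of Arntl, by the root mean square difference of centered log2 CPM over 12680 genes whose mean CPM was 1 or more, were Gm20684 (0.0810), Ccdc171 (0.103) and RP23-198F11.3 (0.113). Those closest to Nr1d1 were Creld2 (0.0558), Nin (0.119) and Nbea (0.128).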

How the data were processed

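Livers of APAP-overdosed and saline-treated mice were profiled by bulk RNA-Seq on an Illumina NovaSeq. The values used are raw counts of reads in each gene, which the authors obtained after HISAT2 alignment and deposited unnormalized. The processing notes name GRCm38 and mm10. The annotation, strand setting and program versions are not given in the sources used here. The 5 FPKM columns were not used. The numbers of the saline columns match no single labelled sample. The methods state individual biological repeats for all experiments, but the labels do not tie each library to a mouse, so p-values measure the spread between these libraries. Within groups, the chi-square of counts divided by its degrees of freedom was 43.2 to 92.2, above sampling noise.

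The analysis used edgeR 4.0.16 (R 4.3.3), with filterByExpr (minimum count 10, minimum total 15), TMM, and the quasi-likelihood test (glmQLFit, glmQLFTest) of APAP against saline with Benjamini-Hochberg adjustment over 13734 genes. The standard error is the log2 fold change over the square root of F. The floor of 3 counts and all intervals cover counting error or library spread only. Exon lengths and exon overlaps came from GENCODE M21, in which 7 of the 10 genes had identical coordinates (all but Arntl, Cry1 and Dbp). Of 34745 gene identifiers, 34267 were found there and 27682 had the same coordinates and strand. Coordinates are those of the deposited table. On simulated counts the tests returned the sign and size of known changes, while the share of false calls was above the nominal level with each tool. The quasi-likelihood test called a minority of the known changes. The likelihood ratio test, the exact test and DESeq2 called more of them, with a higher share of false calls. Figures were drawn with matplotlib 3.10.9.

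The genes and lists were chosen with earlier results of these data known. Named were the 10 core genes, list genes with an adjusted p under 0.05 (up to 6 per list) and the 3 closest profiles each to Arntl and Nr1d1. Alternatives were DESeq2 1.42.0, the likelihood ratio and exact tests, 3 other scalings, 2 other filters and each library left out. Results of some list genes are not reported here. A fit without genes of the X and Y chromosomes was added after seeing the data.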

Additional observations from a re-analysis of the deposited data

How the results depend on the processing

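Of the 8 clock genes that met the study's rule, 5 did so with scaling to library size only (Per2, Per3, Cry1, Nr1d1 and Dbp), and between 6 and 8 with 1 library left out. That scaling moved the median log2 fold change of all genes to 0.42. Relative to it, Arntl was at −1.39, Cry1 at −1.53 and Dbp at 3.44. It also raised the further clock genes that met the rule from 11 to 17 (9 to 12 with 1 library left out) and the share of higher genes among all genes meeting it from 52.5% to 82.03%. With the adjusted p as the threshold, 3 clock genes and 993 genes in all were called in place of 8 and 3228. The likelihood ratio test, the exact test, DESeq2 and a filter of 1 count in any library each called 7 clock genes at the adjusted p, adding Arntl, Npas2, Per2 and Nr1d1, and the first 3 called 1835, 1776 and 2093 genes in all. Scaling to library size only called Per3, Nr1d1 and Dbp. With 1 library left out, 1 to 3 clock genes and 165 to 922 genes passed the adjusted p, and 2179 to 3325 genes met the study's rule. The lowest counts at the adjusted p were without WT2 (165 genes and 1 clock gene). In the fits without APAP replicate 1 or without APAP replicate 3, the lone APAP library was assumed to vary like the saline libraries. Cry1 and Per3 lost their calls as given above, and Dbp kept its call in all 14 alternatives. Directions changed in Per1 (−0.0146 with DESeq2 size factors and with DESeq2, and −0.24 to 0.28 with 1 library left out) and Nr1d2 (−0.18 to 0.65 with 1 library left out). Without genes of the X and Y chromosomes the same 3 clock genes were called. The core clock genes all lie on other chromosomes, so this fit left their counts unchanged. It therefore cannot tell treatment and sex apart. No paired analysis was possible because the names of the saline columns carry no replicate number of the labelled samples. The lowest counts among the clock genes were 12 to 16 for Dbp and 13 to 35 for Per3 with saline, and 9 for Npas2 in APAP replicate 3.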

Other observations

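Genes that respond to glucocorticoids or cyclic AMP, signals that also reach Per1, were read as a list of 12. None passed the adjusted threshold of edgeR's quasi-likelihood test, 3 met the study's thresholds at an unadjusted p, all lower with APAP (beside 23.5% of all genes), and the likelihood ratio test, the exact test and DESeq2 called 2 each. The 3 genes, named after their values were seen, were Tsc22d3 (74.2 and 87.2 CPM against 130.6, 289.4 and 190.7 CPM), Tat and Crem (12.8 and 21.5 CPM against 28.7, 23.5 and 64.0 CPM). The groups did not overlap in any of these 3 genes, which were picked by the rule. Over the whole list they did not overlap in 4 of the 12 genes, beside 44.1% of all genes. With scaling to library size only, the groups overlapped in Tat and Crem. The glucocorticoid-induced Fkbp5 overlapped, at 138.8 and 276.7 CPM with APAP and 56.7, 98.4 and 275.1 CPM with saline.

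Of 9 genes linked to body temperature or heat, all 9 were higher with APAP, with no overlap between the groups (beside 44.1% of all genes), and 6, the heat-shock genes Hsph1, Hsp90aa1, Dnajb1, Hspa1a, Hspa1b and Hspb1, rose at the adjusted p (beside 7.23% of all genes). Without WT2 the adjusted p was 0.0537 for Hsph1, 0.0731 for Hsp90aa1 and 0.0576 for Dnajb1. The cold-inducible RNA-binding genes Rbm3 and Cirbp, which follow the daily rhythm of body temperature and were named after their values were seen, were higher without passing it. Rbm3 measured 94.8 and 58.5 CPM in APAP replicates 1 and 3, compared with 13.2, 22.9 and 34.9 CPM in WT1, WT2 and WT3 (log2 fold change 1.69 ± 0.41, SE, adjusted p = 0.0561). Cirbp was at 30.2 and 21.8 CPM against 10.9, 21.8 and 15.03 CPM (log2 fold change 0.71 ± 0.32, SE, adjusted p = 0.232), and APAP replicate 3 lay only just above WT2.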
